A study of Ovis aries with 9 samples.

Results

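Fragments of the nuclear proline tRNAs, mature-tRNA-Pro-AGG, mature-tRNA-Pro-CGG and mature-tRNA-Pro-TGG, were followed in small RNA libraries of ram sperm. A sequence was taken as a tRNA-Pro fragment where its annotation held any of these names in sense orientation, with or without an end label, and a sequence with several of the names was counted once. The 3 names are among 52 nuclear tRNA names and 74 tRNA names in all, and they were chosen by their read levels: earlier results of these data listed them among the tRNAs lowest in OVER and RES against CON. Their levels are therefore a description and carry no test. They cover 794 of 1296002 distinct sequences in OVER, 1010 of 1249810 in RES and 1116 of 1311597 in CON. The animals were F1 rams of WT genotype whose mothers were overfed (OVER), kept on restricted feed (RES) or given standard feed (CON), and the series asks whether maternal nutrition in gestation is seen in the sons' sperm. The labels used here state neither the ages of the rams nor whether animals were pooled. Sperm from semen was treated with a detergent buffer meant to remove somatic cells, and RNA selected to between 15 and 50 nt was made into libraries with an NEBNext kit and read on an Illumina NovaSeq instrument.

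The labels give 3 samples per group, but within a group the 3 tables proved identical in their sequences and read counts, so each group was counted as 1 library. No test between groups was possible, the differences have no replicate check, and every interval below is a 95% interval of counting error only, on PCR reads without molecular identifiers. Depth was 8287937 reads in OVER, 13160116 in RES and 9983895 in CON. The OVER library held many more short reads than the others: 29.6% of its reads were 15 to 20 nt long, against 10.3% in RES and 5.98% in CON. Reads of 29 nt made up 3.45% of OVER, 8.47% of RES and 12.1% of CON. Nuclear tRNAs made up 12.2% of reads in OVER, 16.8% in RES and 25.9% in CON. Of the marker miRNAs looked up, none of 3 germ cell names (mir-34b, mir-34c, mir-449a) and none of 3 red blood cell names occurs in the annotation, so the sperm label could not be checked against them. The epithelial markers miR-200a, miR-200b and miR-200c, 3 of 6 listed names, summed to 1094 reads per 1000000 library reads (RPM) in OVER, 133.9 RPM in RES and 463.9 RPM in CON. The white blood cell list, with 1 of 4 names found, stayed at 1.21, 2.81 and 1.20 RPM in OVER, RES and CON. Short reads and epithelial markers therefore differ between the libraries in which the fragments differ, and their part in the differences was not tested. In such bulk samples, fewer cells of a type and less RNA per cell cannot be told apart.

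tRNA-Pro carries proline to the ribosome and reads the proline codons, and its isoacceptors are named by their anticodon. Enzymes such as angiogenin can cut mature tRNAs in the anticodon loop, and the resulting 5′ fragments are among the most abundant small RNAs of mature mammalian sperm. The 3′ end of a mature tRNA carries the bases CCA, which are added after transcription, so a fragment ending in CCA comes from a processed tRNA. In tRNA-Pro-AGG the adenine that opens the anticodon is converted to inosine, which sequencing reads as G.

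The sequences below are the 6 most abundant tRNA-Pro fragments that match the genome, averaged over the 3 libraries. They show where the commonest reads start and end, and how these ends arose was not tested. The first is the leading fragment, from which bases are counted starting with 1 at its 5′ end. Capitals mark a base that differs from the leading sequence or bases that reach past its end. G9C means that the leading sequence has G at base 9 and the variant has C.
Leading fragment, 29 nt: ggctcgttggtctaggggtatgattctcg
Variant G9C, 29 nt: ggctcgttCgtctaggggtatgattctcg
Extended to base 32: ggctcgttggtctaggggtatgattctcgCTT
Ending at base 27: ggctcgttggtctaggggtatgattct
Extended to base 30: ggctcgttggtctaggggtatgattctcgC
From base 3 with G6C, internal: ctcCttggtctaggggtatgattctcg
The leading fragment stood at 161.8 RPM in OVER, 1109 RPM in RES and 2267 RPM in CON. It made up 14.02% of tRNA-Pro reads in OVER, 37.9% in RES and 38.5% in CON. The form that runs on to base 32 had 21 reads in OVER, 1890 in RES and 4330 in CON. These 6 sequences were all lowest in OVER and highest in CON, but by unequal steps. OVER was 3.39-fold below CON for the form ending at base 27 and 14.01-fold for the leading fragment. It was 41.4-fold below CON for the form ending at base 30 and 171-fold for the form ending at base 32. The mean that chose them weighs most on CON, where tRNA-Pro was highest, so nothing is read from their shared order. A fragment of 18 nt from base 12, given further on, had another order.

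All tRNA-Pro reads together came to 1154 RPM in OVER (1131 to 1178), 2927 RPM in RES (2898 to 2957) and 5888 RPM in CON (5841 to 5936). The 3 libraries lay in the order OVER, RES, CON from low to high, and the counting intervals were far apart. OVER was 5.10-fold lower than CON (log2 ratio -2.35, -2.38 to -2.32) and 2.54-fold lower than RES (-1.34, -1.37 to -1.31). RES was 2.01-fold lower than CON (-1.01, -1.03 to -0.99). Among nuclear tRNA reads alone, tRNA-Pro made up 0.949% in OVER, 1.74% in RES and 2.28% in CON. On that base the OVER library was 2.40-fold lower than CON (log2 ratio -1.26) and RES was 1.31-fold lower (-0.39). All of these comparisons with CON share the same CON library.

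The 3 proline names were all at least 2-fold lower in OVER than in CON in RPM, where 7 of 69 tRNA names with at least 100 reads in both libraries together were, or 10.1%, and 34.8% were at least 2-fold higher. They were also past 2-fold below CON in RES, where 5.8% of 69 names were lower and 7.25% higher, and past 2-fold below RES in OVER, where 10% of 70 names were lower and 28.6% higher. Since these contrasts chose the names, nothing is read from the shares. The median tRNA name had a log2 ratio of 0.60 in OVER over CON, -0.03 in RES over CON and 0.46 in OVER over RES, and the tRNA-Pro ratio minus that median was -2.95, -0.98 and -1.80 in the same order. With TMM scaling over tRNAs, the split of OVER over CON was 15 higher and 11 lower in place of 24 and 7, and with DESeq2 size factors it was 12 and 12. For RES over CON the proline value lay inside 2-fold with TMM scaling (log2 ratio -0.95) and when set against all tRNA reads (-0.43).

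The isoacceptors were almost the same reads. All 3 names stood together on 96.6% of tRNA-Pro reads in OVER, 98.4% in RES and 98.1% in CON, so the names are not separate observations. Pro-AGG was at 1116, 2881 and 5780 RPM in OVER, RES and CON, Pro-CGG at 1117, 2882 and 5785 RPM, and Pro-TGG at 1152, 2925 and 5882 RPM. Pro-TGG alone was named on 305 reads in OVER, 591 in RES and 1030 in CON, or 36.8, 44.9 and 103 RPM. These reads were lower in OVER than in CON by a smaller step (log2 ratio -1.49, -1.68 to -1.30) than all tRNA-Pro reads. Their difference between OVER and RES was small in RPM (-0.29) and turned to 0.16 against all tRNA reads. Pro-CGG alone had 9, 24 and 53 reads in OVER, RES and CON, and Pro-AGG alone had 3, 5 and 5. The leading sequence of each such set is shown with its listed changes in capitals. The Pro-CGG sequence also runs on to base 34, into the anticodon, and its anticodon bases are not marked. The 29-nt forms with G6T, G9C or G16T as the only change each carried all 3 names. Which bases set the name was not tested.
Pro-TGG alone, G9C and G16T: ggctcgttCgtctagTggtatgattctcg
Pro-CGG alone, G6A: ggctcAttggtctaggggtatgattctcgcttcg
Pro-AGG alone, C60T and C62T: atTcTggacgagccccc
The Pro-TGG sequence had 11 reads in OVER, 50 in RES and 93 in CON. The Pro-CGG sequence had 0, 4 and 3 reads and the Pro-AGG sequence 0, 3 and 0 reads in OVER, RES and CON, too few to compare. Most tRNA-Pro reads belonged to sequences seen in every library: 340 of 1845 distinct sequences occurred in all 3 libraries and held 91.5% of the reads in OVER, 95.3% in RES and 94.9% in CON.

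The end labels of the annotation divide the reads into 5′ end, internal, CCA end and 3′ end without CCA. Fragments with the 5′ end stood at 360.04 RPM in OVER, 2067 RPM in RES and 4602 RPM in CON. They were 12.8-fold lower in OVER than in CON (log2 ratio -3.68), 5.74-fold lower in OVER than in RES (-2.52) and 2.23-fold lower in RES than in CON (-1.15). Their share of tRNA-Pro reads was 31.2% in OVER (30.3 to 32.1), 70.6% in RES (70.1 to 71.1) and 78.1% in CON (77.8 to 78.5). Internal fragments, which carry no end label and include reads that stop within the CCA, were at 736 RPM in OVER, 817 RPM in RES and 1251 RPM in CON, so the 3 libraries were much closer here. The internal log2 ratio of OVER over CON was -0.76 (-0.81 to -0.72), and it turned to 0.27 when all tRNA reads were the base. Internal fragments made up 63.8% of tRNA-Pro reads in OVER, 27.9% in RES and 21.2% in CON.

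Fragments ending in CCA went the other way in RPM. They were few, with 429 reads in OVER, 522 in RES and 308 in CON, or 51.8, 39.7 and 30.8 RPM. OVER over CON had a log2 ratio of 0.75 (0.53 to 0.96) and RES over CON one of 0.36 (0.16 to 0.57). Both stayed above 0 with all 5 library sizes tried, from 0.16 to 1.78 for OVER and from 0.13 to 0.94 for RES, while OVER over RES (0.38) turned to -0.03 with TMM factors and -0.12 with DESeq2 factors. The 3′ end without CCA had 52 reads in OVER, 54 in RES and 46 in CON, and its intervals against CON include 0. The leading sequence of each 3′ class is shown with the CCA in capitals.
CCA end, bases 61 to 75: ccggacgagcccCCA
3′ end without CCA, bases 58 to 72: atcccggacgagccc
The CCA sequence was at 15.2 RPM in OVER, 7.98 RPM in RES and 3.61 RPM in CON, which puts OVER 4.22-fold above CON. It is 15 nt long, a length at which the OVER library holds many reads of every kind. All CCA reads averaged 17.6 nt in OVER, 18.5 nt in RES and 19.4 nt in CON. They were not set against library reads of their own lengths, and the 5 library sizes do not adjust for length.

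**Figure D1:**
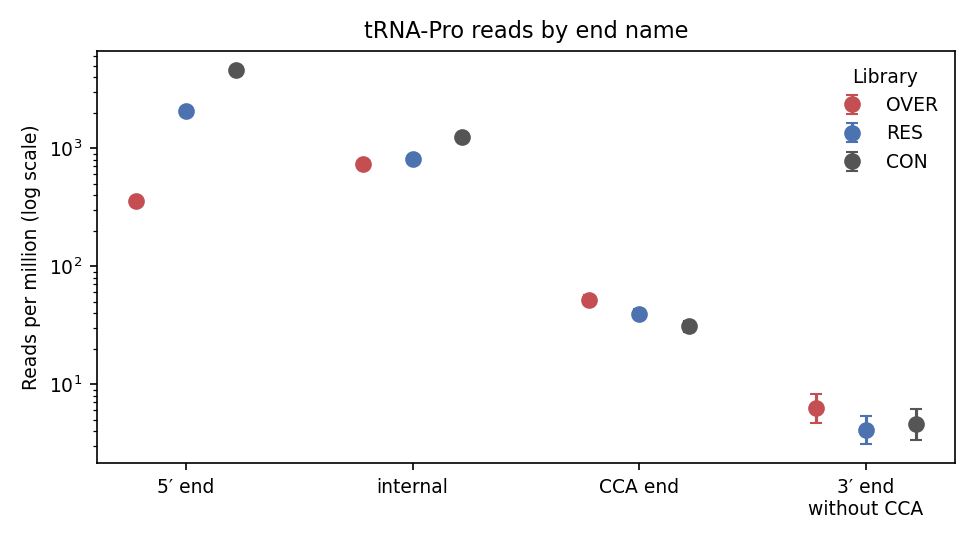
RPM on a log axis of tRNA-Pro reads by end label, with 1 point per library and bars for exact 95% intervals of counting error. 5′ end reads stand at 360.04 RPM in OVER, 2067 RPM in RES and 4602 RPM in CON, while CCA ends run from 51.8 RPM in OVER to 30.8 RPM in CON.

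To see where the reads start and end, all tRNA-Pro reads were placed, with at most 3 mismatches, on a sequence of 75 bases joined from the overlapping reads themselves. Its anticodon lies at bases 33 to 35. Base 29, in the stem before the anticodon loop, was the leading end: reads from base 1 to base 29 stood at 226 RPM in OVER, 1473 RPM in RES and 3075 RPM in CON. They made up 62.7% of 5′ fragments in OVER, 71.3% in RES and 66.8% in CON. The longest common form, ending at base 32 next to the anticodon, was nearly missing from OVER, with 6.27 RPM against 175.8 RPM in RES and 573.9 RPM in CON. It made up 1.74% of 5′ fragments in OVER (1.30 to 2.28), 8.50% in RES (8.18 to 8.84) and 12.5% in CON (12.2 to 12.8). The shorter form ending at base 27 was the reverse in share, at 19.8% of 5′ fragments in OVER, 5.59% in RES and 5.05% in CON. In RPM it was still lowest in OVER, with 71.4 RPM against 115.5 RPM in RES and 232 RPM in CON.

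The differences varied with the end position and, among the ends given here, were largest at base 32. OVER was 3.25-fold below CON for 5′ fragments ending at base 27, 16.1-fold at base 28, 13.6-fold at base 29, 29.9-fold at base 30 and 91.5-fold at base 32. RES was 2.01-fold below CON at base 27, 2.46-fold at base 28, 2.09-fold at base 29, 2.43-fold at base 30 and 3.27-fold at base 32. Internal fragments, which were not needed for the 5′ label, ended at the same bases. Base 29 closed 43.2% of them in OVER, 53.1% in RES and 50.7% in CON. Base 32 closed 4.21% in OVER, 16.9% in RES and 27.7% in CON, and base 27 closed 22.5% in OVER, 5.71% in RES and 6.30% in CON. With and without the 5′ end, the share ending at base 32 was thus lowest in OVER and highest in CON, and the share ending at base 27 was highest in OVER. Between RES and CON, the share at base 27 went in opposite directions in these 2 sets.

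**Figure D2:**
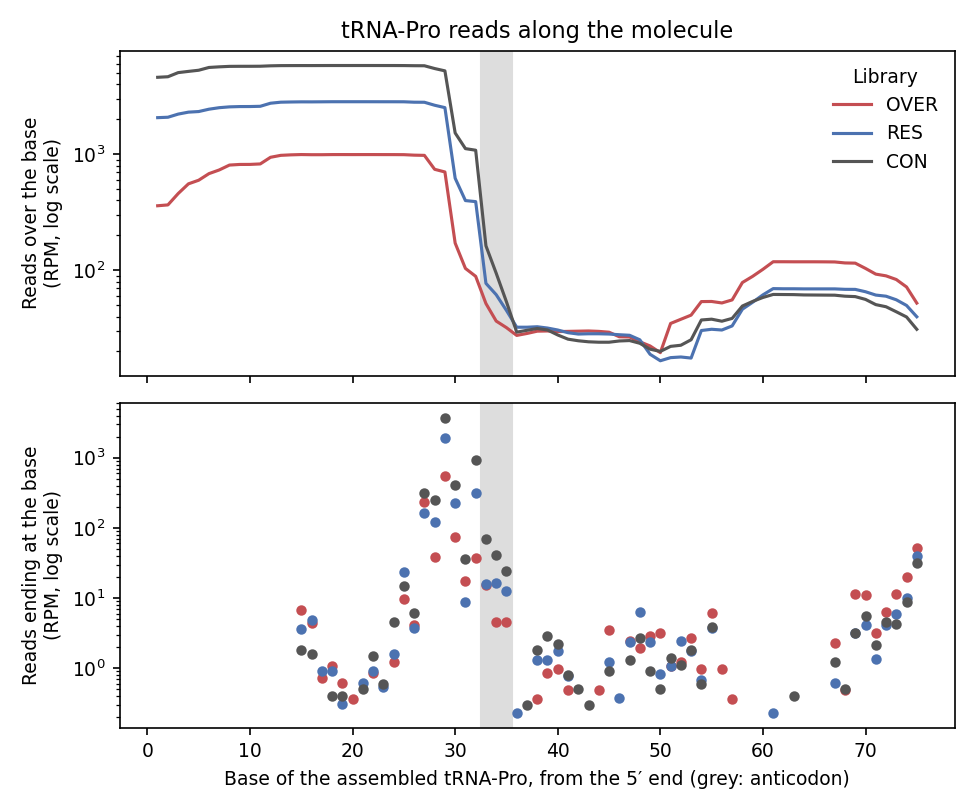
Upper panel: RPM on a log axis of tRNA-Pro reads over each base, 1 line per library, with the anticodon in grey. Lower panel: RPM of reads that end at each base, for bases with at least 3 reads. In the upper panel the libraries are ordered OVER, RES, CON from low to high before the anticodon, and OVER is highest near the 3′ end. Read ends keep that order at bases 28, 29, 30 and 32 but not at every base, as at base 27.

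Downstream of the anticodon the order in RPM was the reverse. Reads that start after base 35 came to 122 RPM in OVER, 66.5 RPM in RES and 57.4 RPM in CON. OVER was above CON by a log2 ratio of 1.09 (0.94 to 1.24) and above RES by 0.88 (0.75 to 1.01), and both stayed positive with all 5 library sizes, down to 0.51 and 0.38. RES over CON was 0.21 (0.06 to 0.37) and turned to -0.02 with annotated reads as the base. These 3′ reads were 10.6% of tRNA-Pro reads in OVER, 2.27% in RES and 0.975% in CON. The 5 library sizes do not adjust for read length, and these reads were not set against library reads of their own lengths. In OVER over CON, tRNA-Pro reads of 15 to 20 nt were also above 0 with all 5 sizes. Among library reads of 15 to 20 nt only, their log2 ratio turned to -0.77.

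The fragments were shorter in OVER, as were the reads of its whole library. Mean length was 23.7 ± 4.59 nt in OVER, 27.3 ± 3.95 nt in RES and 28.6 ± 2.57 nt in CON (SD over reads of 1 library, not over replicates), and 29 nt was the commonest length in each. The mean over all reads of the library was 23.3 nt in OVER, 27.2 nt in RES and 28.5 nt in CON, close to that of tRNA-Pro. Reads of 30 to 33 nt stood at 25.7 RPM in OVER, 373 RPM in RES and 1140 RPM in CON. Reads of 15 to 20 nt stood at 309 RPM in OVER, 291 RPM in RES and 107 RPM in CON, so both OVER and RES were above CON in RPM (log2 ratios 1.53 and 1.45). The base matters here, since OVER holds many short reads of all kinds. Among reads of 15 to 20 nt only, tRNA-Pro had 1046 reads per 1000000 in OVER, 2818 in RES and 1788 in CON, so OVER turned to a log2 ratio of -0.77 (-0.88 to -0.67) while RES stayed above CON at 0.66 (0.56 to 0.76).

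At the leading length the order held on either base. In RPM, 29-nt tRNA-Pro reads were at 228 in OVER, 1494 in RES and 3109 in CON. Among reads of 29 nt only, there were 6610 reads per 1000000 in OVER, 17636 in RES and 25778 in CON, which is 3.90-fold lower in OVER (log2 ratio -1.96) and 1.46-fold lower in RES (-0.55) than in CON. If the CON rates at each length are given the OVER length distribution, 3305 RPM would be reached in place of 5888, and OVER lay 2.86-fold below that value. The same step with the RES lengths gave 5019 RPM, 1.71-fold above the RES value. OVER lay 2.06-fold below the 2382 RPM that the RES rates give at OVER lengths. Each step was thus smaller than in RPM, where OVER was 5.10-fold and RES 2.01-fold below CON, and OVER 2.54-fold below RES. How much of the differences goes with the length make-up was not tested. The level was also set against library reads within each length range. At 21 to 26, 27 to 28, 29 and 30 to 33 nt, it was lower in OVER and RES than in CON. At 15 to 20 nt only OVER was lower.

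**Figure D3:**
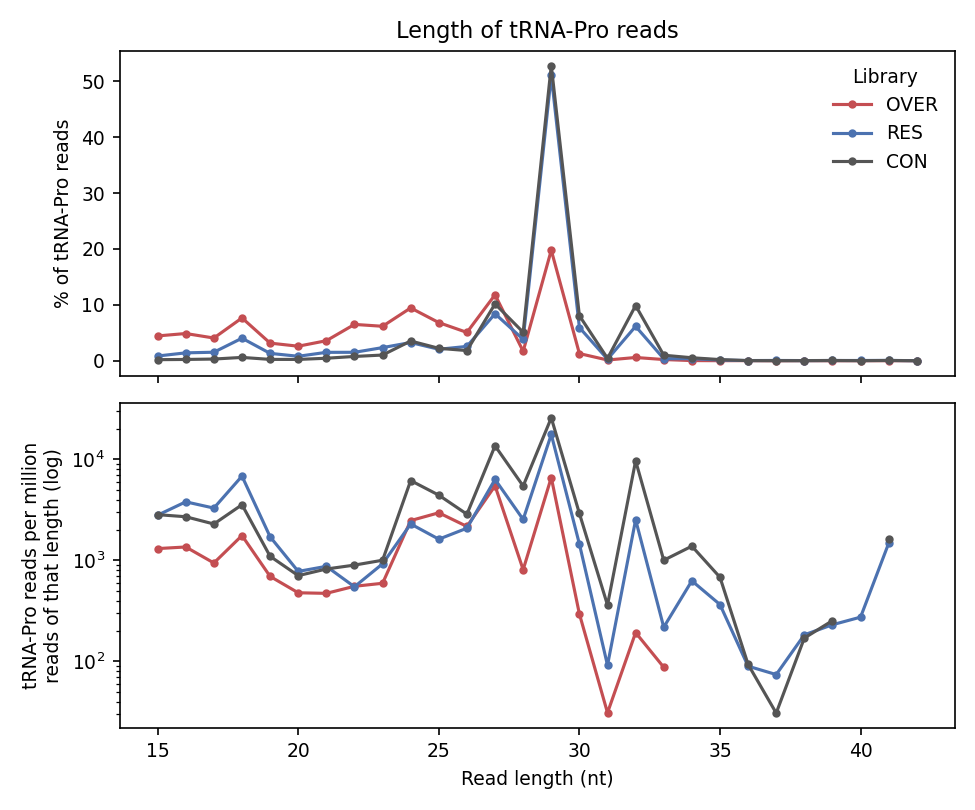
Upper panel: percent of tRNA-Pro reads at each read length in nt, 1 line per library. Lower panel: tRNA-Pro reads per 1000000 library reads of the same length, on a log axis, for lengths with at least 10 tRNA-Pro reads. OVER is lowest at 29 nt in both panels, and RES is highest at 18 nt in the lower one.

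Some short internal fragments were higher in RES and OVER than in CON. Internal reads beginning at base 12 with the bases CTAGG came to 114.9 RPM in OVER, 161 RPM in RES and 46.9 RPM in CON, so they were 2.45-fold above CON in OVER (log2 ratio 1.29) and 3.44-fold above it in RES (1.78). Both stayed above 0 with all 5 library sizes, down to 0.71 and 1.55. Reads beginning with TAGGG, 1 base further on, had the same order at 35.6 RPM in OVER, 55.2 RPM in RES and 22.8 RPM in CON. Of the 8 other leading starts, 6 were lower than in CON in both libraries. Among these, reads beginning at CTTGG were at 67.6 RPM in OVER, 89.9 RPM in RES and 277 RPM in CON, and those beginning at CTCCT at 65.2, 95.5 and 298 RPM. Neither CTTGG nor CTCCT occurs in the leading fragment, and the leading read beginning CTCCT carries G6C. CTTGG occurs in the unnamed form lacking 3 bases that is given under other observations. Whether these reads come from that form was not tested. The exceptions were TGGTC, at 70.6 RPM in OVER, 39.9 RPM in RES and 51.2 RPM in CON, and TTGGT, at 48.4, 71.8 and 65.3 RPM. The leading sequence of the base-12 group, chosen after its values were seen, runs to the common end at base 29.
From base 12 to base 29, 18 nt: ctaggggtatgattctcg
It was at 58.5 RPM in OVER, 83.8 RPM in RES and 19.5 RPM in CON. Among library reads of 18 nt only, all reads placed on these bases came to 1186 reads per 1000000 in OVER, 4949 in RES and 2002 in CON. RES was above CON on both bases, and OVER was above CON in RPM only.

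Bases that differ from the leading sequence were compared in reads that start at base 1, with the shortest left out. These were 2872 reads in OVER, 27064 in RES and 45900 in CON. Base 9 differed most often, in 16.1% of reads in OVER (14.8 to 17.5), 17.1% in RES (16.6 to 17.5) and 17.9% in CON (17.5 to 18.3). The change was mostly G9C, at 11.6, 12.1 and 13.0% in OVER, RES and CON, with G9A at 3.73, 4.28 and 4.10%. Thus the rate at base 9 spanned a narrow range in libraries whose 5′ fragment levels lay up to 12.8-fold apart. It was lowest in OVER and highest in CON, and the OVER and RES intervals lay just below that of CON. Guanine at this base is methylated in several tRNAs, which can lead reverse transcriptase to misread it, but whether that holds here was not tested. G16T was different, with base 16 changed in 7.21% of reads in OVER (6.29 to 8.22), 2.73% in RES (2.54 to 2.93) and 2.22% in CON (2.09 to 2.36). Base 6 changed in 2.30, 1.80 and 2.30% of reads in OVER, RES and CON. The 29-nt forms that carry 1 such change are shown with it in capitals.
Variant G9A: ggctcgttAgtctaggggtatgattctcg
Variant G16T: ggctcgttggtctagTggtatgattctcg
Variant G6T: ggctcTttggtctaggggtatgattctcg
G9A was at 7.96 RPM in OVER, 67.2 RPM in RES and 139.4 RPM in CON, 17.5-fold lower in OVER than in CON, close to the step of G9C (14.9-fold). G16T was at 14.7 RPM in OVER, 39.7 RPM in RES and 67.9 RPM in CON, a smaller step of 4.61-fold. G6T was at 2.41, 11.2 and 45.8 RPM in OVER, RES and CON.

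Base 30, just past the leading end, also varied among the reads that start well before it and reach it. Reads that start close to it were left out of the 1423, 8178 and 15232 reads over this base in OVER, RES and CON. C was present in 62.5% of the reads kept in OVER, 82.8% in RES and 87.4% in CON. C30G was present in 27.8% in OVER (25.3 to 30.3), 13.5% in RES (12.8 to 14.3) and 8.91% in CON (8.46 to 9.38), and C30T in 9.17, 2.88 and 3.33% in OVER, RES and CON. The C form thus held a smaller share in OVER, in a set of 1308 reads against 8062 in RES and 15159 in CON. The set mixes 5′ and internal reads, and the mix differs between the libraries. Reads from base 1 to base 30 numbered 96 in OVER, 1878 in RES and 3458 in CON. Those from base 1 to base 32 numbered 52, 2313 and 5730. The shares at base 30 were not split by read class. C30G stood at 43.8 RPM in OVER, 82.8 RPM in RES and 135 RPM in CON, so it too was lowest in OVER, by a smaller step than the C form (98.6, 507 and 1327 RPM).

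Only reads that span bases 33 to 35 show the anticodon itself, and there were 263 of these in OVER, 594 in RES and 534 in CON. TGG was read in 26.6% of them in OVER (21.4 to 32.4), 42.6% in RES (38.6 to 46.7) and 39.9% in CON (35.7 to 44.2). CGG was read in 37.3% in OVER (31.4 to 43.4), 20.03% in RES (16.9 to 23.5) and 20.8% in CON (17.4 to 24.5). GGG, the letters that an inosine in place of the first adenine of AGG gives, was read in 33.5, 36.5 and 38.4% in OVER, RES and CON. In RPM, CGG reads were close in OVER, RES and CON, at 11.8, 9.04 and 11.1. TGG stood at 8.45, 19.2 and 21.3 RPM and GGG at 10.6, 16.5 and 20.5 RPM in the same order. The spanning reads mix 5′ and internal reads, and their shares were not split by read class. AGG itself was read in 0 of 263 reads in OVER, which allows a share of up to 1.14% (3 reads of the total), in 1 of 594 in RES and in 0 of 534 in CON, which allows up to 0.562%. Reads with CGG, TGG and GGG were present in each library, although most 5′ fragments end before the anticodon and do not tell the isoacceptors apart. The leading spanning sequences are shown with the anticodon in capitals.
CGG, bases 30 to 55: cttCGGgtgcgagaggtcccgggttc
GGG, bases 1 to 35: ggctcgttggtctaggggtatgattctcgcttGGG
TGG with C30G and G38C, bases 17 to 48: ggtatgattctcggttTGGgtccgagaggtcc
The CGG sequence lies mostly past the anticodon and had 20 reads in OVER, 17 in RES and 19 in CON. The GGG sequence starts at base 1 and had 0, 16 and 52 reads in OVER, RES and CON, and the TGG sequence had 0, 34 and 10.

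Set beside the other 21 nuclear amino acid types, each with its reads summed once, tRNA-Pro was second lowest in OVER over CON and in RES over CON. Since these contrasts chose the names, nothing is read from the rank of tRNA-Pro. The type below it was in both cases Glu, the best known source of 5′ fragments in sperm along with Gly. Glu stood at 21623 RPM in OVER, 55991 RPM in RES and 116629 RPM in CON, with log2 ratios of -2.43 for OVER and -1.06 for RES against CON. The other 21 types ranged from -2.43 to 2.98 in OVER over CON with a median of 0.35, and 7 of them were below 0. Of the 6 types best known for 5′ fragments in sperm (Gly, Glu, Val, His, Lys and Asp), 4 were below 0 in OVER over CON, with a median log2 ratio of -0.55 and 1 at least 2-fold lower. In RES over CON all 6 were below 0, with a median of -0.52 and 1 at least 2-fold lower. By the distance between the pairs of log2 ratios against CON, over 3 libraries, the types most like tRNA-Pro were Glu (0.10), SeC (1.55) and Asp (1.71). Among names, they were Glu-TTC (0.113), mt-Ser-TGA (0.726) and Glu-CTC (1.26).

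Proline and glutamate fragments differed in make-up. Glu kept a 5′ share of 81.9% in OVER, 95.5% in RES and 97.4% in CON, while that of Pro was 31.2, 70.6 and 78.1%. Other types had a lower 5′ share in OVER too: Gln had 32.7% in OVER against 75.1% in CON, and Asp 24.6% in OVER against 60.3% in CON. In 5′ reads alone, Pro had the lowest log2 ratio of OVER over CON among 17 types, at -3.68 against -2.68 for Glu and a median of 0.24 for the 16 others. In RES over CON, 2 of the 16 others were below Pro (-1.15) in 5′ reads, namely Arg (-1.39) and Gln (-1.16). The name Glu-CTC, over all its reads, was at -3.62 in OVER over CON, below each Pro name. In reads without the 5′ end, Pro was at -0.70 in OVER over CON, within the range of the 21 others (-0.89 to 1.87), and 2 of them were lower. In RES over CON, Pro reads without the 5′ end were at -0.58, below all 21 others, of which the lowest was at -0.54. Here too the contrasts with CON had chosen the names, and nothing is read from the ranks. The lower share of long 5′ fragments in OVER was not seen in every tRNA: 5.999% of Pro 5′ reads were 30 nt or longer in OVER against 22.5% in CON, whereas Glu had 77.7% in OVER against 69.4% in CON, and Gly 92.95% in OVER against 81.3% in CON. Over the 16 other types the median change in this share was -0.95 percentage points, and 11 of the 16 were lower in OVER than in CON.

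**Figure D4:**
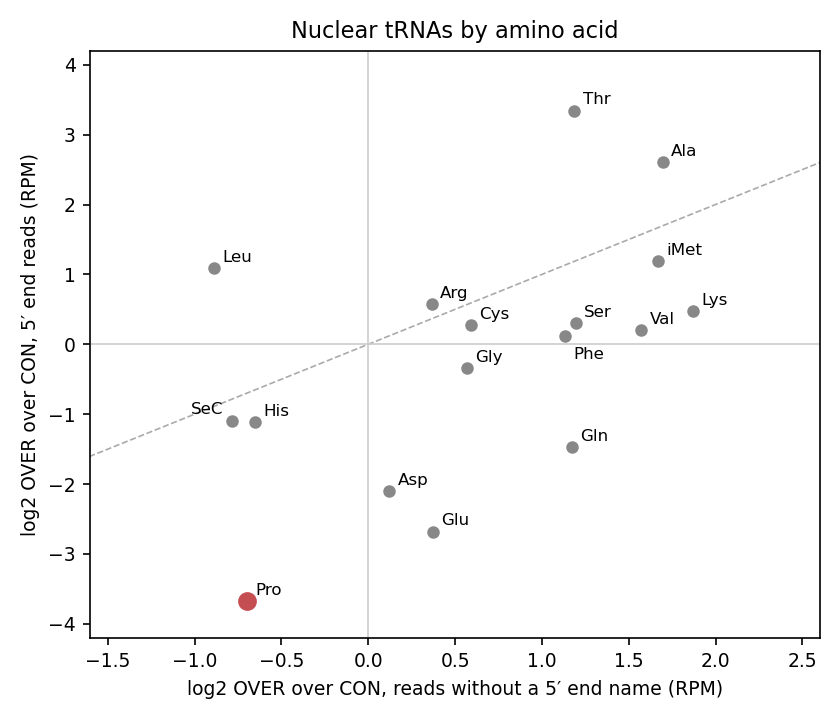
Each point is a nuclear amino acid type, with the log2 ratio of OVER over CON for reads without the 5′ end on the horizontal axis and for 5′ reads on the vertical axis; the dashed line marks equal ratios. Pro, in red, is lowest on the vertical axis at -3.68 and lies at -0.70 on the horizontal one.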

How the data were processed

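Small RNA of F1 ram sperm was analysed from 9 deposited tables, 3 per group. Per the file headers each lists distinct sequences with their length, read count, genome match and annotation. The authors' deposited counts are whole numbers with no normalization, and the deposited length (another unit, in nt) equals the length of the sequence. edgeR is named in the submitters' processing notes, with no version. Which aligner, annotation source and build were used is not given in the sources used here. Within a group, all 3 tables held identical sequences and counts, so each group is 1 library of 8287937 (OVER), 13160116 (RES) or 9983895 (CON) reads, and the planned comparison has no test.

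The members, lists and tests were chosen with earlier results of these data known. Reads with a tRNA-Pro name were summed once and scaled to all library reads (RPM). Shares have exact Clopper-Pearson 95% intervals, and log2 ratios have intervals from the exact binomial of the 2 counts. A count of 0 allows up to 3 reads. Background counts took tRNA names with at least 100 reads in both libraries together and a 2-fold threshold, giving reads with several names in full to each. The sequences printed are the 6 genome-matching ones with the highest mean RPM, the leading one of each other end and of each name alone, with leading variants and anticodon sequences added after the data were seen. The 3 types and 3 names at the smallest distance from tRNA-Pro are named. Reads were placed, with at most 3 mismatches, on a 75-base sequence joined from reads by overlaps of 14 nt. The marker miRNA lists were germ cells, epithelium, red blood cells and white blood cells.

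Alternatives were annotated reads, tRNA reads, TMM factors (edgeR 4.0.16) and DESeq2 1.42.0 size factors as the library size, reads of 25 to 40 nt, genome-matching reads, reads without another amino acid, 5′ reads only, no count filter, and an equal split of shared reads. The calculation of ratios was tested on simulated counts with known fold changes and counting error only, which is no test between the groups. Python 3.11.15, pandas 2.3.3, numpy 2.4.6, scipy 1.17.1, matplotlib 3.10.9 and R 4.3.3 were used.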

Additional observations from a re-analysis of the deposited data

How the results depend on the processing

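The tRNA-Pro level kept its direction in all 3 comparisons under every alternative listed here. For OVER over CON (log2 ratio -2.35), it was -2.48 with annotated reads, -1.32 with tRNA reads, -2.71 with TMM and -2.94 with DESeq2 factors as the library size, -2.05 with reads of 25 to 40 nt, -2.42 with genome-matching reads, -3.68 with 5′ reads only and -2.63 with unnamed sequences that share 16 nt added, an alternative chosen after seeing the data. In the same order RES over CON (-1.01) was -1.24, -0.43, -0.95, -1.09, -0.96, -1.15, -1.15 and -1.23, and OVER over RES (-1.34) was -1.24, -0.89, -1.75, -1.85, -1.09, -1.27, -2.52 and -1.40. Reads of 15 to 20 nt alone were not among these alternatives. In RPM they were above CON in OVER (log2 ratio 1.53) and in RES (1.45). Among library reads of these lengths, only RES stayed above CON (0.66). Leaving out a deposited table moved no value, since their sequences and counts are identical. Annotations differ in up to 3 sequences, which left the tRNA-Pro reads the same. The count of tRNA names at least 2-fold higher in OVER than CON (24) was 15 with TMM and 12 with DESeq2, and lower (7) was 11 and 12. In RES over CON, higher (5) was 8 with no filter and 2 at 25 to 40 nt, and lower (4) was 1 with TMM. In OVER over RES, higher (20) was 12 with TMM and 11 with DESeq2, and lower (7) was 12 with DESeq2. With each distinct sequence weighted once, mean length was 22.2, 24.7 and 26.5 nt and the 5′ share 17.6, 26.7 and 34.5% in OVER, RES and CON. The cause of these shifts was not tested. No paired analysis was possible because each group is 1 library and the result comes from no test. Depth limits the anticodon shares and the sequences named for 1 isoacceptor, and the spread between animals is unknown.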

Other observations

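Sequences without a tRNA-Pro name that share at least 16 nt with the assembled tRNA-Pro sequence were counted after the data were seen. They came to 483 RPM in OVER, 1407 RPM in RES and 4268 RPM in CON, and 93.6 to 99.8% of these reads had no annotation. Their number was 0.418 times that of the named tRNA-Pro reads in OVER, 0.481 times in RES and 0.725 times in CON. At most 0.875% of them match the genome in any library. Most are a form in which 3 of the first bases of the leading fragment are missing, at 246 RPM in OVER, 957.5 RPM in RES and 2816 RPM in CON (log2 ratio -3.51 for OVER and -1.56 for RES against CON). The leading sequence is shown as it stands in the files.
Form lacking 3 bases, 26 nt: ggcttggtctaggggtatgattctcg
It had 180.02 RPM in OVER, 737.5 RPM in RES and 2027 RPM in CON, beside 161.8, 1109 and 2267 RPM for the leading named fragment in the same libraries, and ends with the same bases. With these reads added, tRNA-Pro stood at 1637 RPM in OVER, 4335 RPM in RES and 10156 RPM in CON. Where they come from was not tested.

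The mitochondrial tRNA for proline, mature-mt_tRNA-Pro-TGG, is a separate gene product that serves protein synthesis inside mitochondria. It stood at 300.4 RPM in OVER, 260.5 RPM in RES and 337 RPM in CON, with log2 ratios of -0.17 (-0.24 to -0.09) for OVER and -0.37 (-0.44 to -0.30) for RES against CON. Its 5′ share was 57.9% in OVER, 73.9% in RES and 65.2% in CON, and its commonest length was 30 nt in each.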
